A study of Mus musculus with 12 samples.

Results

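miR-9 is a microRNA of the nervous system that the mouse makes from 3 genes, and the 3 rows of the deposited table that belong to it (mmu-mir-9-1, mmu-mir-9-2 and mmu-mir-9-3) were followed across all libraries. They were chosen by name alone, and they are 3 of the 589 precursors in the table. Small RNA of the cerebral cortex of female mice on a C57BL/6J background was sequenced in 4 groups. WT mice carried intact Tlr4 and drank water, WT + EtOH mice drank water with 10% (v/v) alcohol for 5 months, TLR4-KO mice lacked the receptor TLR4 in the whole body and drank water, and TLR4-KO + EtOH mice lacked it and drank the alcohol. The mice were 7 weeks old at the start, and all groups had solid food at will over the same 5 months. Per the paper, the WT animals came from Harlan Ibérica and the knockouts from S. Akira of Osaka University. RNA of 9 mice per group was combined into 3 pools and each pool gave 1 library, so that there were 12 libraries, n is 3 in each group, and every SD below is a spread between pools and not between mice. The libraries hold small RNA and no Tlr4 mRNA, so the genotype could not be checked in them.

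A microRNA is cut from a hairpin-shaped precursor RNA, and it guides a silencing complex to messenger RNAs that pair with its seed, the bases from position 2 to position 8. Each miR-9 hairpin gives a mature strand from both sides, miR-9-5p and miR-9-3p. miR-9 is among the most abundant microRNAs of the brain, is made in neural progenitors and neurons, and is known for a part in neurogenesis, with the repressors REST (through miR-9-5p) and its partner CoREST (through miR-9-3p) and the nuclear receptor TLX among its known targets. In neurons exposed to alcohol, miR-9 is also known to act on splice variants of the BK potassium channel. TLR4 is the innate immune receptor that recognises bacterial lipopolysaccharide, and it signals in microglia and astrocytes exposed to alcohol.

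The mature strands are shown first because they decide what a value of 1 precursor can mean. The sequences are those of RefSeq on GRCm38.p6, where 3 of the 3 precursors were matched, with the seed in capitals.
mmu-miR-9-5p: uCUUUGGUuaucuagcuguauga
mmu-miR-9-3p: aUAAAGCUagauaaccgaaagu
All 3 genes encode the same 23 bases of miR-9-5p and the same 22 bases of miR-9-3p. Among 1738 mature mouse entries (1674 distinct sequences), each seed occurred in the products of these 3 genes and in no other entry, so that no further mouse microRNA of the sequence table shares the miR-9 seeds.

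The hairpins show where the 3 genes do differ. Both mature strands are in capitals, and the loop and the outer stem are in lower case.
mmu-mir-9-1: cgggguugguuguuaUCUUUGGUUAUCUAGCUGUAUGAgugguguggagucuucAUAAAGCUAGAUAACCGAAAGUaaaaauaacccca
mmu-mir-9-2: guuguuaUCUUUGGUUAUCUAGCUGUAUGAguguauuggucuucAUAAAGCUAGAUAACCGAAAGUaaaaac
mmu-mir-9-3: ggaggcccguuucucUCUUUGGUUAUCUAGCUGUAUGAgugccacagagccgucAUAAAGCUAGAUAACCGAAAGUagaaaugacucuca
The loop between the strands had 16 bases in mmu-mir-9-1, 14 in mmu-mir-9-2 and 16 in mmu-mir-9-3, and the loops of mmu-mir-9-1 and mmu-mir-9-3 had the same base at 9 of the 16 positions. In the structure of lowest energy predicted by RNAfold, 21 of the 23 bases of miR-9-5p and 20 of the 22 bases of miR-9-3p were paired in each hairpin. The annotated hairpin of mmu-mir-9-2 is shorter (72 bases) than those of mmu-mir-9-1 (89 bases) and mmu-mir-9-3 (90 bases). Its predicted energy was -28.2 kcal/mol, against -41.0 and -41.7 kcal/mol for the longer hairpins. A read of either mature strand therefore fits all 3 hairpins equally well, and only the loop and the outer stem, which are mostly absent from a library of mature microRNAs, can tell the genes apart. The deposited values are per precursor and do not separate the strands.

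The 3 genes lie on different chromosomes, each within a long non-coding RNA of the GENCODE M21 annotation of GRCm38 and on its strand. mmu-mir-9-1 (chr3:88215598-88215686, plus strand) is in an intron of Gm3764. mmu-mir-9-2 (chr13:83738814-83738885, plus strand) lies in C130071C03Rik, where exons of 2 annotated transcripts overlap it. mmu-mir-9-3 (chr7:79505264-79505353, plus strand) is in an intron of Mir9-3hg, the host transcript named for it. A separately annotated miRNA gene, Gm25641, covers the opposite strand at mmu-mir-9-1.

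The deposited value of a precursor is a normalized score on a log-like scale with no stated unit. The highest value was the same in all 12 libraries (135), a precursor listed at 0 stays at 0, and all values came from a common set of 387 levels. Differences below are therefore steps on this scale, not folds, and the number of reads behind a value is unknown. Of the 589 precursors, 324 were above 0 in at least 1 library and 190 in all 12, and the 3 miR-9 precursors belonged to the latter. The 265 at 0 in every library can neither be called nor separate groups. Shares of all 589 given below are therefore smaller than shares of the detected precursors. The number of precursors above 0 was 260 to 270 in the WT libraries. In the other groups it was 262 to 270 in the libraries numbered 1 and 216 to 247 in those numbered 2 or 3, so that the library numbered 1 stands apart from the others in each of the 3 groups that are not WT. Results on miR-9 are given with and without the libraries of that number.

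miR-9 was near the top of the scale in every library. In WT cortex, mmu-mir-9-1 had values of 94.6, 93.7 and 93.4, mmu-mir-9-2 had 93.4, 93.7 and 93.4, and mmu-mir-9-3 had 93.4, 93.7 and 94.6, in libraries 1, 2 and 3. These 9 values lay within 1.20 of each other, and they placed miR-9 at rank 16 or 17 of the library. In WT + EtOH, mmu-mir-9-1 had values of 85.2, 88.7 and 90.0 (ranks 29, 25 and 22). mmu-mir-9-2 and mmu-mir-9-3 shared the values 86.5, 89.8 and 90.0 (ranks 27, 23 and 22). All WT + EtOH values were below all WT values, and library 1 was the lowest of the group for each precursor.

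In TLR4-KO, mmu-mir-9-1 had values of 85.2, 88.7 and 89.7, with ranks 28, 24 and 24. mmu-mir-9-2 and mmu-mir-9-3 were again equal in every library of the group, at 85.2, 88.7 and 90.1. In TLR4-KO + EtOH, mmu-mir-9-1 and mmu-mir-9-2 shared the values 84.9, 89.8 and 89.2, and mmu-mir-9-3 had 83.7, 88.7 and 90.0. The 3 groups other than WT overlapped with each other, and library 1 was again the lowest of both knockout groups.

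**Figure D1:**
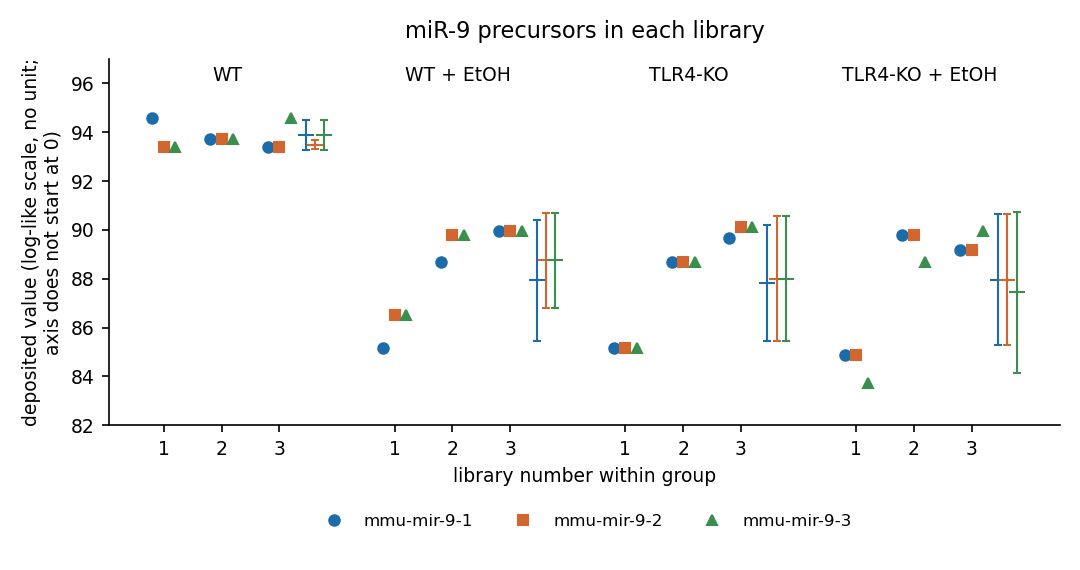
Deposited value (log-like scale with no unit, axis from 82 to 97) of the 3 miR-9 precursors in each of the 12 libraries, by group and library number, with the group mean and SD (n = 3) at the right of each group. The WT values sit between 93.4 and 94.6, above the values of the other 9 libraries, which lie between 83.7 and 90.1, with the libraries numbered 1 lowest.

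The lowest WT value of any miR-9 precursor (93.4) was 3.25 above the highest value in the other 9 libraries (90.1). For comparison, the 3 precursors differed among themselves within a library by 1.35 at most. Of all 589 precursors, 23 (3.9%) had all WT libraries above all other 9, and among the 190 precursors above 0 in every library 21 did (11.1%), the 3 miR-9 rows included. The opposite arrangement, WT below all other 9, was seen in 17 precursors (2.89%). Because the tissue is a bulk sample and the value is a normalized score, fewer cells that make miR-9 and less miR-9 per cell cannot be told apart. Nor can either be told apart from a rise of other microRNAs with miR-9 unchanged.

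The libraries numbered 1 of the other 3 groups had miR-9 values of 83.7 to 86.5, and those numbered 2 or 3 had 88.7 to 90.1. These ranges do not overlap, and neither reaches the WT range. The WT libraries, with 260 to 270 precursors above 0, had about as many precursors above 0 as the libraries numbered 1 of the other groups (262 to 270), and it is against those libraries that the miR-9 values of WT stood furthest above. The part of library number, or of what it stands for, in these values was not tested.

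**Figure D2:**
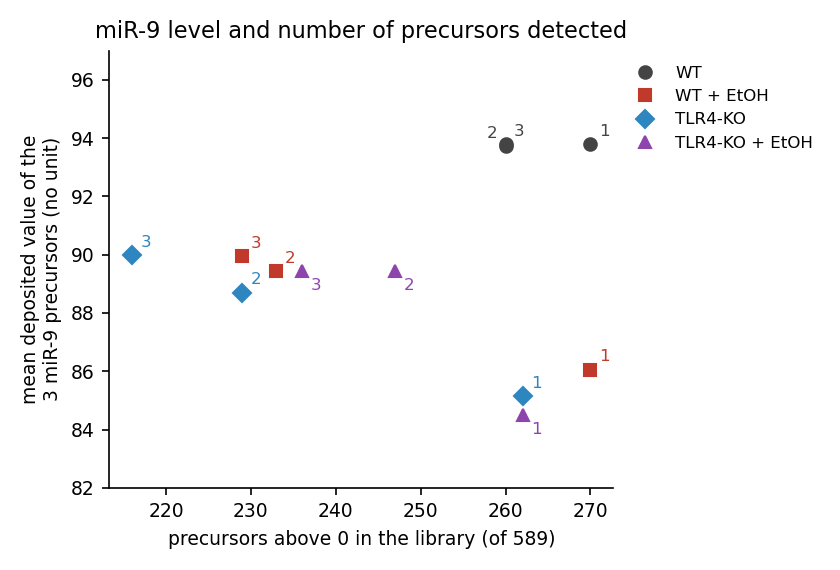
Mean deposited value of the 3 miR-9 precursors (no unit, axis from 82 to 97) against the number of precursors above 0 in the library, of 589, with 1 point per library, the group by colour and shape and the library number beside the point. The WT points (260 to 270 precursors) lie at 93.7 to 93.8, the libraries numbered 1 of the other groups (262 to 270 precursors) at 84.5 to 86.1, and the remaining 6 at 88.7 to 90.0.

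The 3 precursors were close to each other in every library. In 4 of the 12 libraries they had exactly 1 value, in 8 they had 2 distinct values, and in none were there 3. Where they differed, the gap was 0.464 to 1.35. The 36 values took only 13 levels of the scale, and the largest gap was in library 1 of WT + EtOH, where mmu-mir-9-1 was at 85.2 and the others at 86.5. Over the 12 libraries the mean was 89.4 ± 3.30 (SD) for mmu-mir-9-1, 89.6 ± 3.0 for mmu-mir-9-2 and 89.5 ± 3.33 for mmu-mir-9-3. With identical mature strands these are near-copies of 1 measurement, and 3 rows with the same direction do not count as 3 observations.

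The first comparison, WT + EtOH minus WT, asks what chronic alcohol did to miR-9 in mice with TLR4. The group means of mmu-mir-9-1 were 87.9 ± 2.49 (SD, n = 3) and 93.9 ± 0.617, a difference of -5.96 with a standard error of 1.77 and a 95% interval of -10.0 to -1.91. For mmu-mir-9-2 the means were 88.8 ± 1.95 and 93.5 ± 0.195, and the difference was -4.74 (95% interval -8.60 to -0.886). For mmu-mir-9-3 they were 88.8 ± 1.95 and 93.9 ± 0.617, with a difference of -5.14 (95% interval -9.41 to -0.870). The intervals lay below 0 before adjustment, but no miR-9 precursor passed the threshold. The p-values came from limma, a linear model that can share spread between precursors. It shared little here (0.308 prior of 8.31 total degrees of freedom). They were 0.0092, 0.0217 and 0.0239, and 0.18, 0.246 and 0.256 after Benjamini-Hochberg adjustment over 589 precursors. With only the precursors above 0 in at least 3 libraries, the limma adjusted p-values were 0.104, 0.146 and 0.142. In this comparison 1.7% of the 589 precursors were called by limma at an adjusted p under 0.05. An unadjusted limma p under 0.05 was found for 12.6%, 6.45% with the lower value in WT + EtOH. The paper itself describes miR-9 as unchanged by alcohol, and shows a quantitative PCR assay of it in individual tissues beside its sequencing. The deposited values were not tested against that assay.

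For each miR-9 precursor, 3 of 3 WT + EtOH libraries were below all WT libraries. This was so for 9.51% of all precursors, of which 265 were at 0 in every library and could not count. The exact two-sided permutation test gave p = 0.1 for each, the smallest value that 3 libraries against 3 allow. Among the 190 precursors above 0 in all libraries the median difference was 0.306, and 40, 49 and 45 of them had a difference as low as or lower than those of mmu-mir-9-1, mmu-mir-9-2 and mmu-mir-9-3.

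Leaving out the libraries numbered 1, a setting added after the data were seen, gave differences closer to 0 with smaller standard errors. Library 1 held the lowest miR-9 values of each group other than WT, so this setting removes the extreme pool of those groups. The WT libraries left had 260 precursors above 0 and the others 216 to 247. WT and a higher number of detected precursors cannot be told apart in this setting. WT + EtOH minus WT was then -4.23 ± 0.596 (SE) for mmu-mir-9-1, -3.67 ± 0.551 for mmu-mir-9-2 and -4.27 ± 0.718 for mmu-mir-9-3, from 2 libraries per group. The first 2 of these passed the threshold in limma (adjusted p = 0.0457 and 0.0475) and mmu-mir-9-3 did not (adjusted p = 0.0641), with 4.41% of the 589 precursors called. With the number of precursors above 0 as a covariate, also added after the data were seen, the differences were -8.05, -6.79 and -7.40 (limma, adjusted p = 0.00356, 0.00356 and 0.00416), and 10% of all precursors were called. The WT libraries differed little in this number (260 to 270). The slope, here and in the covariate fits below, therefore came mainly from the other groups. In each of those, library 1 had the most precursors above 0 and the lowest miR-9 values. The direction was the same in each of these fits, and whether a miR-9 precursor was past the threshold differed between them.

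The second comparison, TLR4-KO minus WT, sets the genotypes side by side without alcohol. The genotypes also differed in the source of the animals. Loss of the receptor and source therefore cannot be told apart, here or in any later comparison across genotypes. The second comparison uses the same 3 WT libraries as the first, so that the outcomes are not independent. A property of these WT libraries and a property of the WT state cannot be told apart. The TLR4-KO means were 87.8 ± 2.38 (SD, n = 3) for mmu-mir-9-1 and 88.0 ± 2.56 for mmu-mir-9-2 and for mmu-mir-9-3. The differences from WT were -6.05 (95% interval -10.1 to -2.01), -5.50 (-9.35 to -1.65) and -5.90 (-10.2 to -1.63). None passed, with limma p-values of 0.0085, 0.0108 and 0.0127 and adjusted p-values of 0.140, 0.163 and 0.170, where 2.55% of all precursors were called and 12.2% had an unadjusted p under 0.05, 6.28% with the lower value in TLR4-KO.

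All 3 TLR4-KO libraries were below all WT libraries for each miR-9 precursor (8.49% of all precursors), with an exact two-sided permutation p of 0.1. Without the libraries numbered 1 the differences were -4.37 ± 0.596 (SE), -4.14 ± 0.551 and -4.73 ± 0.718, and all passed in limma (adjusted p = 0.0377, 0.0377 and 0.0494), with 4.41% of all precursors called. With the covariate they were -9.05, -8.43 and -9.13 (limma, adjusted p = 0.00225, 0.00161 and 0.00196, with 10.7% of all precursors called).

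The third comparison, TLR4-KO + EtOH minus TLR4-KO, asks what alcohol did in mice without TLR4. The TLR4-KO + EtOH means were 88.0 ± 2.69 (SD, n = 3) for mmu-mir-9-1 and mmu-mir-9-2 and 87.5 ± 3.30 for mmu-mir-9-3. No difference was detected for miR-9. The differences were 0.115 for mmu-mir-9-1 (95% interval -3.93 to 4.16), -0.0395 for mmu-mir-9-2 (-3.89 to 3.82) and -0.541 for mmu-mir-9-3 (-4.81 to 3.73). Each limma adjusted p was 1, the exact permutation p-values were 0.9, 1 and 0.7, and 0.34% of all precursors were called. The intervals reach from -4.81 to 4.16 and overlap those of the alcohol difference in WT mice.

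Without the libraries numbered 1 the same differences were 0.313 ± 0.596 (SE), 0.0814 ± 0.551 and -0.0914 ± 0.718. The comparison of the alcohol-treated groups, TLR4-KO + EtOH minus WT + EtOH, gave 0.0214 (95% interval -4.03 to 4.07), -0.799 (-4.65 to 3.06) and -1.30 (-5.57 to 2.97), with a limma adjusted p of 1 for each and 0.509% of all precursors called. Without the libraries numbered 1 these differences were 0.173 ± 0.596 (SE), -0.384 ± 0.551 and -0.557 ± 0.718. With all libraries the exact permutation p-values were 1, 0.6 and 0.7.

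The difference of the alcohol effects is the alcohol difference in TLR4-KO mice less that in WT mice. It tests whether alcohol acted on miR-9 to a different extent in the 2 genotypes, which also differed in source. It was 6.08 ± 2.50 (SE) for mmu-mir-9-1, with a 95% interval of 0.353 to 11.8. It was 4.70 ± 2.38 for mmu-mir-9-2 (-0.750 to 10.2) and 4.60 ± 2.64 for mmu-mir-9-3 (-1.44 to 10.6). No precursor passed (limma, adjusted p = 0.361, 0.544 and 0.660), with 1.19% of all precursors called, so that a different alcohol effect on miR-9 in the 2 genotypes was not shown. Without the libraries numbered 1 the values were 4.54, 3.75 and 4.18 (limma, adjusted p = 0.104, 0.133 and 0.205), and with the covariate they were 9.54, 8.09 and 8.34 and passed (limma, adjusted p = 0.0109, 0.0109 and 0.0117, with 9.85% of all precursors called). A test of any difference among the 4 groups gave limma adjusted p-values of 0.236, 0.292 and 0.290.

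**Figure D3:**
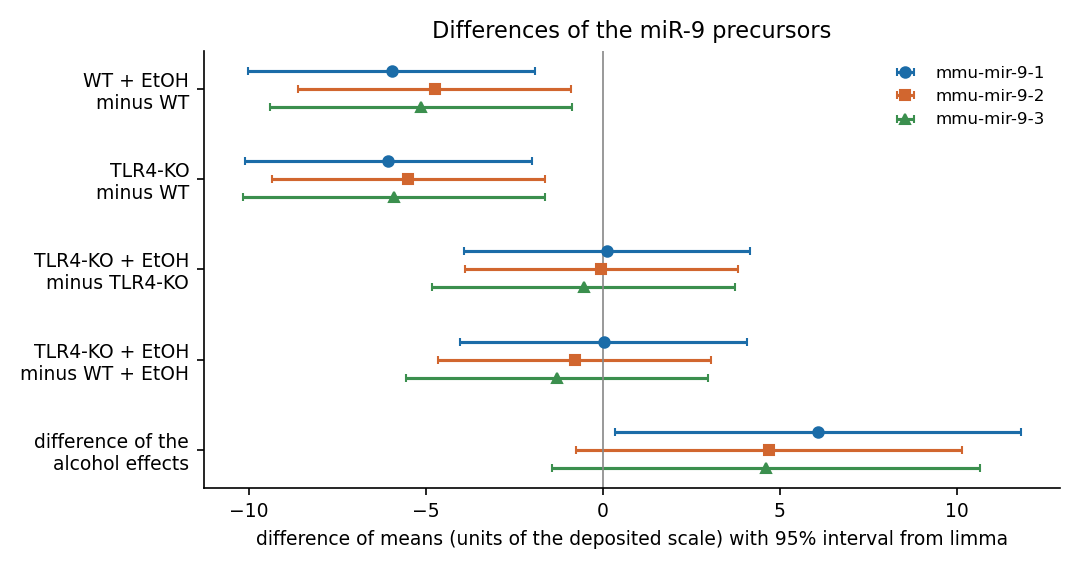
Difference of means of the 3 miR-9 precursors in the 5 comparisons (x axis, units of the deposited scale) with the 95% interval from limma over all 12 libraries, before adjustment, and a line at 0. The intervals lie below 0 for WT + EtOH minus WT and for TLR4-KO minus WT, which share the WT libraries, and span 0 for both comparisons that do not use WT.

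Among all precursors, the 3 miR-9 rows held positions 22 to 24 by the mean over the 12 libraries, and their SD ranked 39 (mmu-mir-9-1), 28 (mmu-mir-9-2) and 40 (mmu-mir-9-3) from the smallest among the 190 precursors above 0 in every library, where the median SD was 4.51. The levels are not corrected for length, and an order on this scale is an order of deposited values only. Just above miR-9 were mmu-mir-138-1, a neuron-enriched microRNA (90.7 ± 2.03, SD over 12 libraries), and mmu-mir-181c (89.6 ± 2.28). Just below were 2 members of the let-7 family, mmu-let-7b (89.1 ± 4.46) and mmu-let-7f-2 (87.0 ± 3.56). The means of these neighbours differed from those of miR-9 by less than the SD of miR-9, and the order among them was not fixed across libraries.

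The place of miR-9 among its neighbours was not the same in WT as in the other groups. In the 3 WT libraries all miR-9 precursors were above mmu-mir-181c, which had a WT mean of 86.4 ± 0.480 (SD, n = 3). In each of the other 9 libraries mmu-mir-181c was above all of them, with means of 90.1 ± 2.12 (WT + EtOH), 90.9 ± 0.870 (TLR4-KO) and 91.2 ± 0.786 (TLR4-KO + EtOH). The same exchange was seen for 4 more precursors, which were picked after their values were seen. They are mmu-mir-181b-2, also of the miR-181 family, mmu-mir-30c-1 and mmu-mir-30c-2, which encode the same mature miR-30c, and mmu-mir-486b, an erythroid microRNA. mmu-mir-30c-1 had a mean of 90.2 in WT libraries, 92.7 with alcohol (WT + EtOH), 93.3 without TLR4 (TLR4-KO) and 94.4 with both (TLR4-KO + EtOH). In the same order mmu-mir-486b had 91.5, 99.7, 100.3 and 97.7. These orders within libraries are a description, with no test. miR-9 was at rank 16 or 17 in WT and at ranks 22 to 31 in the other libraries, so other precursors had to pass it. The exchange is therefore not independent of the lower miR-9 values.

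**Figure D4:**
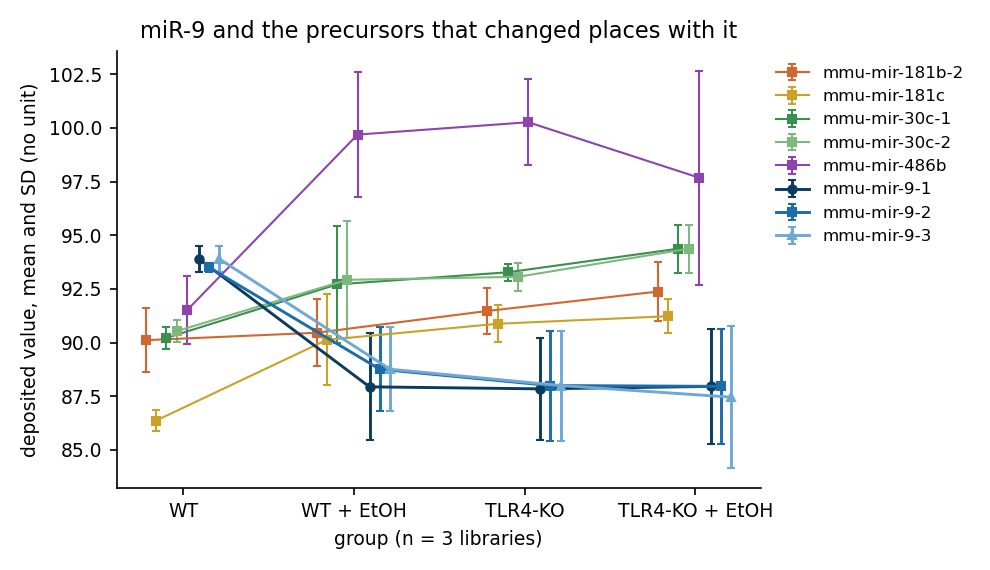
Group mean and SD (n = 3, deposited scale with no unit, axis not from 0) of the 3 miR-9 precursors and of the 5 precursors that were below all of them in each WT library and above all of them in each of the other 9. The miR-9 lines start at 93.5 to 93.9 in WT and continue at 87.5 to 88.8, while mmu-mir-181c runs from 86.4 to between 90.1 and 91.2.

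The 5 precursors whose pattern over the 12 libraries was most like the mean of the 3 miR-9 rows were mmu-mir-26b, mmu-mir-28a, mmu-mir-192, mmu-mir-136 and mmu-mir-3071. Likeness was the mean absolute difference of standardised values (each value less the mean of its precursor, divided by its SD over 12 libraries) among the 187 other precursors above 0 in every library. The distance was 0.19 for mmu-mir-26b, 0.254 for mmu-mir-28a, 0.271 for mmu-mir-192, 0.286 for mmu-mir-136 and 0.304 for mmu-mir-3071, against a median of 1.08 over the 187. The sixth was at 0.311, close behind, and the miR-9 rows themselves were at 0.0649 to 0.115.

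mmu-mir-26b had values of 62.3, 62.3 and 62.0 in WT libraries 1, 2 and 3. The WT + EtOH libraries had 46.9, 51.9 and 55.0, the TLR4-KO libraries 45.4, 49.97 and 55.3, and the TLR4-KO + EtOH libraries 49.2, 53.6 and 55.0. Its WT libraries were thus above all others, and the libraries numbered 1 were lowest in the other groups, as for miR-9. Its differences from WT were -10.97 ± 2.83 (SE) in WT + EtOH and -11.99 ± 2.83 in TLR4-KO, neither past the threshold (limma, adjusted p = 0.120 and 0.0709). mmu-mir-28a had a mean of 30.8 in WT libraries, 21.3 with alcohol, 17.6 without TLR4 and 20.1 with both, low on the scale compared with miR-9. In the same order mmu-mir-192 had means of 55.7, 48.1, 48.7 and 48.6. mmu-mir-136 (65.7, 58.1, 55.4 and 57.7) and mmu-mir-3071 (64.2, 56.7, 52.3 and 55.3) are annotated on opposite strands of the same stretch of chromosome 12 and may share reads. None of the 5 was called in WT + EtOH minus WT or in TLR4-KO minus WT, where the limma adjusted p-values were 0.0570 to 0.421.

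**Figure D5:**
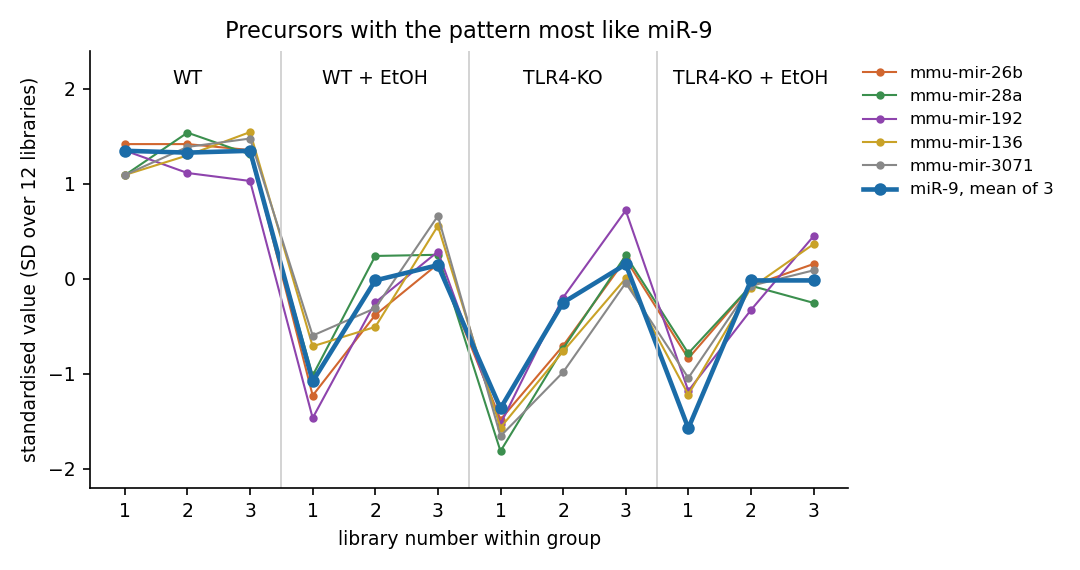
Standardised values (in SDs over the 12 libraries, 0 is the mean of each precursor) of the mean of the 3 miR-9 precursors and of the 5 precursors most like it, by group and library number. All 6 lines are highest in the 3 WT libraries and lowest, within each of the other groups, in library 1.

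Other microRNAs of neurons, which along with progenitors make miR-9, were set beside it. Of the 15 neuron-enriched precursors listed (copies of miR-124, miR-128, miR-129, miR-138 and miR-218, with miR-132, miR-137, miR-153 and miR-212), 15 were above 0 and 0 were called by limma in any of the 5 comparisons, in which 0.34% to 2.55% of all 589 precursors were called. Their median difference was 3.19 in WT + EtOH minus WT, with 11 higher and 4 lower, and 2.62 in TLR4-KO minus WT, with 10 higher and 5 lower, against a median of 0 over the 324 precursors above 0 in at least 1 library. The summed value of the 15 was 732 to 762 in WT libraries, 756 to 793 with alcohol (WT + EtOH), 756 to 777 without TLR4 (TLR4-KO) and 759 to 799 with both (TLR4-KO + EtOH). Such sums, here and below, add values of a log-like scale and are not amounts of RNA. mmu-mir-218-1, a microRNA of motor and other neurons, had a mean of 55.7 ± 2.90 (SD, n = 3) in WT and 46.3 ± 4.51 in WT + EtOH, a difference of -9.38 that was not called (limma, adjusted p = 0.201). mmu-mir-128-1, added after its values were seen, went the other way, with 61.4 ± 3.78 in WT and 70.7 ± 2.02 in WT + EtOH. Its difference of 9.29 was not called (limma, adjusted p = 0.0563). mmu-mir-153 was at 0 in 4 of the 12 libraries and spread widely (6.49 ± 7.86 in WT and 16.3 ± 15.5 in WT + EtOH).

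In cultured neural progenitors, miR-9 is known as alcohol-sensitive together with miR-21, miR-153 and miR-335. In these cortices 0 of the 3 corresponding precursors were called in any comparison (0.34% to 2.55% of all precursors were), and their median difference was -8.21 in WT + EtOH minus WT and -9.35 in TLR4-KO minus WT, with 1 higher and 2 lower in each. mmu-mir-335, processed from an intron of the imprinted gene Mest, had a mean of 43.0 ± 2.08 (SD, n = 3) in WT libraries, 34.0 ± 8.35 with alcohol, 24.8 ± 5.78 without TLR4 and 33.9 ± 4.93 with both. Its difference in TLR4-KO minus WT was -18.2 (limma, adjusted p = 0.0905), and its WT + EtOH libraries were spread from 25.2 to 41.8.

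MicroRNAs of other cell types that a piece of cortex holds were set beside miR-9. Of the 5 erythroid precursors 2 were called lower in WT + EtOH minus WT and in TLR4-KO minus WT, mmu-mir-451a and mmu-mir-451b, whose values were identical in all 12 libraries and count as 1 (1.7% and 2.55% of all precursors were called in these comparisons). In WT + EtOH minus WT, 2 members of the list had a higher and 3 a lower mean, with a median difference of -0.383, and in TLR4-KO minus WT the median was -4.13. mmu-mir-451a, made in red blood cells, had WT values of 50.2, 50.2 and 46.3 and was between 24.5 and 36.0 in the other 9 libraries. Its differences were -14.6 (limma, adjusted p = 0.0346) and -17.6 (adjusted p = 0.00948). With mir-451 counted once, the summed erythroid value was 241 to 256 in WT libraries and 243 to 247 with alcohol. It was 231 to 244 without TLR4 and 219 to 241 with both. The WT range overlapped those of WT + EtOH and TLR4-KO and lay just above that of TLR4-KO + EtOH (240.9 against 240.6). The largest terms of this sum were mmu-mir-486a (means of 105.9, 105.5, 106.4 and 105.0 in the same order) and mmu-mir-486b. mmu-mir-486b went the other way from mmu-mir-451a (91.5 in WT and 99.7 in WT + EtOH, not called), and mmu-mir-144 was at 0 in 9 libraries. How reads were divided between mmu-mir-486a and mmu-mir-486b is not known, so these rows may not be separate measurements. The part of blood content in the miR-9 values was not tested.

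Of the 7 leukocyte and microglia precursors 6 were above 0 and 1 was called higher in WT + EtOH minus WT and in TLR4-KO minus WT (1.7% and 2.55% of all precursors were called). In WT + EtOH minus WT, 2 had a higher and 2 a lower mean, with a median difference of 0. mmu-mir-150, of lymphocytes, had a WT mean of 69.3 ± 0.566 (SD, n = 3) and was called higher in WT + EtOH (76.8 ± 2.64; limma, adjusted p = 0.0444) and in TLR4-KO (78.6 ± 2.25; adjusted p = 0.00958). mmu-mir-223, which marks myeloid cells, was at 0 in all libraries. mmu-mir-146a, induced by NF-kB, and mmu-mir-342 were not called in any comparison. The summed value of this list was 179 to 187 in WT libraries, 186 to 201 with alcohol, 161 to 189 without TLR4 and 176 to 190 with both, with overlapping ranges.

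Of the 5 vascular precursors 4 were above 0 and 0 were called by limma in any comparison (0.34% to 2.55% of all precursors were). In WT + EtOH minus WT, 1 had a higher and 3 a lower mean, with a median difference of -5.94. The endothelial mmu-mir-126a had means of 61.2 in WT and 54.6 in WT + EtOH (-6.58, adjusted p = 0.289), and mmu-mir-145a of smooth muscle, the 1 with the higher mean, had 55.7 and 63.8 (8.09, adjusted p = 0.151). mmu-mir-143, also of smooth muscle and added after its values were seen, had 84.0 and 77.6 (-6.45, limma adjusted p = 0.0649). The summed vascular value was 249 to 261 in WT and 240 to 249 in WT + EtOH. The oligodendrocyte list (4 of 4 above 0) and the choroid plexus and ciliated cell list (4 above 0 of the 6 in the table) had 0 calls in any comparison, against 0.34% to 2.55% of all precursors. In WT + EtOH minus WT, 3 of the 4 oligodendrocyte precursors had a higher and 1 a lower mean (median difference 2.50), and of the choroid plexus list 1 was higher and 2 were lower (median -0.384). mmu-mir-219b was the lower one of the oligodendrocyte list, with 29.4 in WT and 25.7 in WT + EtOH. mmu-mir-219a-2, above 0 in 5 libraries, had 4.56 and 8.41. mmu-mir-204, abundant in choroid plexus, had 82.3 and 87.4, mmu-mir-211 had 18.7 and 15.6, and the ciliated-cell mmu-mir-449a and mmu-mir-449c were at 0 in all libraries.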

How the data were processed

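Per the labels and the methods, small RNA of cortex was extracted with the miRNeasy kit, and pooled RNA was made into TruSeq small RNA libraries and sequenced on an Illumina HiSeq. The submitters' processing notes name FastQC 0.11.6, cutadapt 1, Bowtie2 2.2.5, TopHat and GRCm38. The authors mapped trimmed reads to non-coding RNA databases, counted them, scaled libraries by TMM (a trimmed mean of log ratios) and used edgeR for their own tests. The deposited values are a normalized score per precursor and library on a log-like scale, made by steps not given in the sources used here. They are not counts, so no count model was fitted, depth is unknown, and how reads that fit several precursors were assigned is not stated.

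Here limma 3.58.1 (R 4.3.3; lmFit, contrasts.fit, eBayes) was fitted to the values of all 589 precursors and 12 libraries with 1 mean per group, 5 contrasts, Benjamini-Hochberg adjustment over 589 and a threshold of 0.05 (prior degrees of freedom 0.308, total 8.31). It was tested on simulated data. Two-sided exact permutation tests (scipy 1.17.1) compared 3 libraries with 3. Python 3.11.15, numpy 2.4.6, pandas 2.3.3, matplotlib 3.10.9 and RNAfold of ViennaRNA 2.7.2 were used. Libraries of a group are separate pools, and p-values measure the spread between pools.

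Named besides miR-9 were the 5 precursors most like it, the 2 above and the 2 below it by mean value, any mouse microRNA with its seeds, and of each list (neuron, alcohol-sensitive with miR-9 in progenitors, oligodendrocyte, leukocyte and microglia, vascular, erythroid, choroid plexus and ciliated cells) the members called in any comparison and the 2 with the largest difference of WT + EtOH minus WT. Outside this rule, the precursors that exchanged places with miR-9, mmu-mir-128-1, mmu-mir-143, mmu-mir-486a and the list members at 0 in all libraries (mmu-mir-223, mmu-mir-449a, mmu-mir-449c) were named after their values were seen. The members and the lists were chosen with earlier results of these data known. Alternatives were quantile normalization, centring on miR-181a and miR-181b, a filter (above 0 in at least 3 libraries), log2(value + 1), only the groups compared, the replicate number as a block, robust or trended eBayes, the 3 copies replaced by their mean, order by mean rank and each library left out. Libraries with the same number in different groups were checked for deviating together, as the correlation of their deviations from the group means. It was -0.109 to 0.153 over 18 pairs, and over 0.1 in 10. Same-numbered pairs were over 0.1 in 2 of 3 for WT + EtOH with TLR4-KO and with TLR4-KO + EtOH. Between TLR4-KO and TLR4-KO + EtOH 3 of 3 were (0.101 to 0.153). Differently numbered pairs of these groups reached 0.0687 at most. With WT, 1 of 3 same-numbered pairs was over 0.1 for each group, and differently numbered pairs reached 0.246. The main fits leave the number out, and thus any shared deviation of the groups other than WT. As a block, it changed no miR-9 call in TLR4-KO + EtOH minus TLR4-KO.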

Additional observations from a re-analysis of the deposited data

How the results depend on the processing

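For the 15 miR-9 differences, 306 of 342 alternative values kept their direction and their side of the limma threshold. For WT + EtOH minus WT and TLR4-KO minus WT no alternative changed the direction. In many of them it could not change. The filter, only the groups compared, the block, robust or trended eBayes and leaving out a library of another group leave the difference as it is. All miR-9 values of WT + EtOH and of TLR4-KO lay below all WT values. Leaving out a compared library, log2(value + 1), averaging the copies or keeping only libraries 2 and 3 could therefore not reverse the direction either. The 3 near-copies are counted apart, also where their mean replaces them, so the count of 306 is no measure of independent checks. With the replicate number as a block, TLR4-KO minus WT passed for mmu-mir-9-2 (-5.50, adjusted p = 0.0363) and mmu-mir-9-3 (-5.90, adjusted p = 0.0259), and mmu-mir-9-1 did not (adjusted p = 0.0618). The block changed no other miR-9 call. In 2 settings chosen after the data were seen, more passed. With only the libraries numbered 2 and 3, WT + EtOH minus WT was -4.23 (mmu-mir-9-1) and -3.67 (mmu-mir-9-2), and TLR4-KO minus WT was -4.37, -4.14 and -4.73. With the number of precursors above 0 as a covariate, WT + EtOH minus WT was -8.05, -6.79 and -7.40, TLR4-KO minus WT was -9.05, -8.43 and -9.13, and the difference of the alcohol effects was 9.54, 8.09 and 8.34, all past the threshold. The cause of these changes was not tested.

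The small differences without WT changed sign in places. For TLR4-KO + EtOH minus TLR4-KO, mmu-mir-9-1 was -0.822 after centring on miR-181a and miR-181b and -0.155 with the copies averaged, mmu-mir-9-2 was 0.0814 with libraries 2 and 3 and 1.30 with the covariate, and mmu-mir-9-3 was 0.938 with the covariate. For TLR4-KO + EtOH minus WT + EtOH, mmu-mir-9-1 was -1.17 after centring and -0.693 with the copies averaged.

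With each library left out in turn, WT + EtOH minus WT ranged from -6.97 to -4.57 (mmu-mir-9-1), -5.34 to -3.62 (mmu-mir-9-2) and -5.74 to -4.01 (mmu-mir-9-3), and TLR4-KO minus WT from -6.97 to -4.71, -6.57 to -4.08 and -6.97 to -4.48. TLR4-KO + EtOH minus TLR4-KO ranged from -1.23 to 1.66, -1.46 to 1.50 and -1.96 to 1.33, TLR4-KO + EtOH minus WT + EtOH from -1.37 to 1.56, -1.92 to 0.742 and -2.55 to 0.569, and the difference of the alcohol effects from 4.69 to 7.62, 3.28 to 6.24 and 3.18 to 6.47. No miR-9 precursor passed in these fits.

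The numbers of precursors called over the whole table moved more. For WT + EtOH minus WT, 10 calls became 21 with the filter on values above 0, 26 with libraries 2 and 3, 59 with the covariate and 4 to 18 with a library left out. For TLR4-KO minus WT, 15 became 31, 26, 63 and 11 to 22, and 24 with the block. For the difference of the alcohol effects, 7 became 13 with the filter, 12 after centring, 15 on the log2 scale, 3 with the block, 58 with the covariate and 2 to 15 with a library left out. The difference of the alcohol effects has no fit on only the groups compared. What the unknown depth limits cannot be stated.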
